A study of Mus musculus with 11 samples.

Results

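The 10 genes of the circadian clock listed here were followed in astrocytes sorted from 4 regions of the adult mouse brain. The genes were chosen by name as core clock and clock output genes: Clock, Arntl, Per1, Per2, Per3, Cry1, Cry2, Nr1d1, Nr1d2 and Dbp. They are 10 of the 24421 genes with a value in every sample, and all 10 were among the 13875 genes that passed the filter on low counts. Every sample came from 16-week-old BAC transgenic Aldh1l1-eGFP mice kept on a C57BL/6 background, in which eGFP marks cells that use the Aldh1l1 promoter, a promoter active broadly in astrocytes. Both male and female mice were used in the study, and sex was not a term in any test. Reads of 4 Y-linked genes were seen in 3 samples and not in the other 8. Which 3 samples these were is not given here, so this count cannot tell whether sex followed region or replicate number. GFP-positive cells were collected by FACS from the olfactory bulb (OB, n = 3), hippocampus (HC, n = 3), cortex (CX, n = 2) and brainstem (BS, n = 3), with no treatment in any group, and total RNA was sequenced after rRNA depletion. Neither the hour of collection nor the light cycle is given in the sources used here. The labels do not say whether samples came from separate mice, so the p-values measure the spread between these samples.

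In the clock, the transcription factors CLOCK and ARNTL (BMAL1) pair, bind E-box sequences and activate the Per and Cry genes, whose proteins return to the nucleus and inhibit the pair. A second loop runs through the nuclear receptors NR1D1 and NR1D2 (REV-ERB alpha and beta), which are also driven by E-boxes and repress Arntl at elements that the activating ROR receptors share. Dbp is an E-box output gene whose protein binds D-box elements, and in most tissues its transcript and those of Per and Nr1d genes cycle roughly opposite to Arntl. Astrocytes hold a working clock and can drive daily rhythms in the brain.

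Values are normalized read counts, that is, reads per gene divided by 1 size factor per sample. Reads assigned to genes, recovered from these values, summed to between 2830746 and 14151670 per sample, which is not the number of reads sequenced. In these samples, 1 read was worth between 0.367 and 2.10 of a normalized count. Summed levels of 10 astrocyte markers were 275900 to 327000 in OB, 298100 to 501900 in HC, 604200 to 679300 in CX and 106100 to 302800 in BS, and every marker had reads in every region. Choroid plexus markers, 15 genes led by the transthyretin gene Ttr, summed to 74930 to 152100 in HC and 53940 to 255200 in BS, but to 287 to 390 in OB and 1912 to 5395 in CX. Oligodendrocyte markers (10 genes) summed to 53460 to 91300 in BS and to at most 41240 elsewhere. The ribosomal transcript Rn45s took 18.0 to 25.6% of the recovered reads in CX and BS and 0.966 to 2.93% in OB and HC. In such bulk samples, fewer cells of a type and less RNA per cell cannot be told apart.

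Nr1d1 was the most abundant member. Its level per kilobase of exon, averaged over the 11 samples, was 412, followed by Nr1d2 at 127, Clock at 66.8, Cry2 at 46.3 and Cry1 at 31.2. Arntl at 23.2, Per1 at 22.3 and Per3 at 22.2 lay close together, and Per2 at 15.6 and Dbp at 14.8 were lowest. Dbp rested on only 18 to 76 reads per sample, whereas Nr1d1 had 551 to 3773. From highest to lowest sample, the normalized count spanned 5.19-fold for Dbp, 3.52-fold for Arntl and 1.62-fold for Nr1d2, the narrowest of the members.

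**Figure D1:**
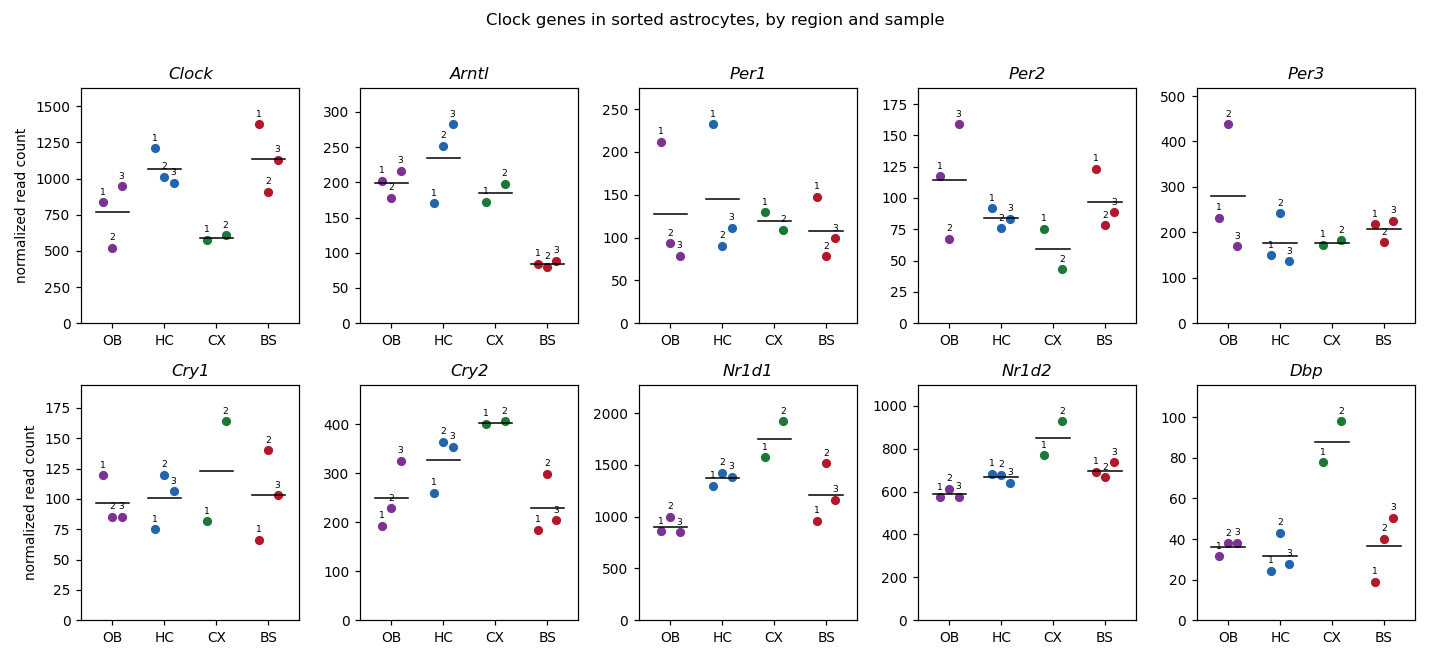
Normalized read count (y axis, from 0, a separate scale for each gene) of the 10 clock genes in each sample, by region; points are samples with their replicate number and bars are region means. The 3 BS samples of Arntl sit at 80.1 to 88.4, below all other samples, and the 2 CX samples of Dbp at 77.9 and 98.1 sit above all others.

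Each region was compared with the samples of the other regions pooled, using limma on log2(value + 1). A call required p under 0.01 before adjustment, more than 1.5-fold change, and values above 5 in 2 or more samples of 1 region. By this rule 1 member was called in BS (Arntl, lower), 1 in OB (Nr1d1, lower), 1 in CX (Dbp, higher) and none in HC. Over all genes tested, 5.05% were called lower in BS, 3.89% lower in OB, 1.02% higher in CX and 1.28% in either direction in HC. Against the other samples pooled, no member in HC had an unadjusted p under 0.05 with limma, edgeR or DESeq2. The limma count at that level was 6 in CX, 1 in OB and 1 in BS. For CX it was 4 with edgeR (TMM) and 4 with DESeq2. The share of all genes at that level was not counted, so these counts are not read as a result about the members. With a mean fitted for each region, limma called Arntl in HC. Among the calls of the main test, only that of Arntl in BS also had a Benjamini-Hochberg adjusted p under 0.05 in limma. By that stricter rule 3.35% of all genes were lower in BS, 1.99% were lower in OB and 0% were higher in CX. The median log2 fold change of the 10 members was -0.16 in OB, 0.09 in HC, 0.24 in CX and -0.05 in BS, against 0.02, 0.02, -0.03 and 0.02 over all genes.

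**Figure D2:**
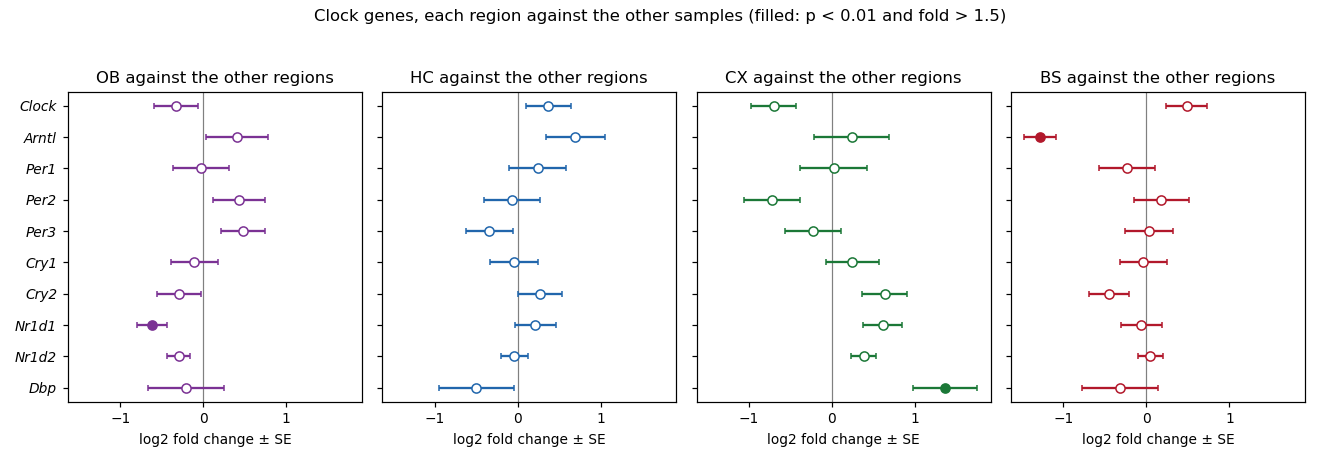
Log2 fold change (x axis, on the log2(value + 1) scale) of each clock gene in 1 region against the samples of the other regions; points are limma estimates, error bars are standard errors and filled points were called. Arntl in BS (-1.28) and Dbp in CX (1.36) lie farthest from 0, and 3 points are filled.

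Among the activators, Arntl was the member with the smallest p among regions (limma F-test adjusted p = 0.001754). It read 202, 178 and 217 in OB, 170, 252 and 282 in HC, 172 and 198 in CX, and 84.1, 80.1 and 88.4 in BS. All 3 BS samples lay below all 8 others, as was the case for 4.19% of all genes tested. Mean levels were 84.2 ± 4.13 (SD, n = 3) in BS, 185 ± 18.2 (n = 2) in CX, 199 ± 19.7 (n = 3) in OB and 235 ± 58.3 (n = 3) in HC. Arntl was 2.43-fold lower in BS than in the other samples (log2 fold change -1.28 ± 0.19 SE, limma adjusted p = 0.001266). Leaving out any 1 sample gave log2 fold changes of -1.32 to -1.21, and over the 10 tests and scalings run the adjusted p ranged from 3.508e-06 to 0.004746.

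Pairwise, Arntl was higher than in BS by 1.44 on the log2 scale in HC (limma adjusted p = 0.001574), by 1.23 in OB (adjusted p = 0.002176) and by 1.12 in CX (adjusted p = 0.0117). Over all genes, 4.63% passed the same test for HC against BS, 15% for OB against BS and 10.9% for CX against BS. Neighbours in the order HC, OB, CX did not differ beyond their spread, with adjusted p = 0.7259 for OB against HC and 0.9088 for OB against CX. The BS reads behind these values were few, at 80, 40 and 42. Markers of other cells differed between regions as well, and their part in the Arntl difference was not tested. Oligodendrocyte marker sums were 53460, 65030 and 91300 in the 3 BS samples and at most 41240 in the others, so that BS was set apart in this list as in Arntl. Astrocyte marker sums were 106100, 302800 and 180900 in BS, of which that of replicate 2 was within the range of OB. Choroid plexus sums of BS (53940 to 255200) and HC (74930 to 152100) overlapped.

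Clock encodes the partner of ARNTL and had its highest mean in BS. Clock read 1376, 908 and 1130 in BS, 1208, 1013 and 969 in HC, 835, 522 and 947 in OB, and 574 and 607 in CX. The 2 CX samples were close to each other and above only 1 OB sample. Clock differed among regions (limma F-test adjusted p = 0.03449), and CX was lower than BS by 0.92 on the log2 scale (adjusted p = 0.0244). Against all other samples pooled, CX was lower by 0.70 ± 0.27 SE with an adjusted p of 0.4036, and was not called. The F-test of Clock lost its call without any 1 of 7 samples, with adjusted p up to 0.1387 without CX replicate 1, and without the filter on low counts (0.05216). Within each sample, the ratio of Clock to Arntl was 16.4, 11.3 and 12.8 in BS and between 2.94 and 7.11 in the other 8 samples.

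Npas2 encodes a relative of CLOCK that can take its place beside ARNTL. It read 145, 78.9 and 126 in OB, 333, 199 and 290 in HC, 338 and 305 in CX, and 125, 321 and 267 in BS. OB was low in every sample, overlapping only with BS replicate 1. Npas2 was called lower in OB, 2.29-fold (limma adjusted p = 0.03211). Arntl2, the paralog of Arntl, had at most 4.6 normalized counts in any sample and was not tested.

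The promoters of the 3 called members and of Per1, the member that varied most between replicates, are shown to place their clock elements. RefSeq start-site windows of 300 bases on GRCm38.p6, a patch release of the build that UCSC calls mm10, were matched by symbol for 9 of the 10 members; Per2 had no entry. Arntl, Per1 and Clock have several windows, of which 1 each is given for Arntl and Per1. Capitals mark matches, on either strand, to the E-box CACGTG, its variant CACGTT, the D-boxes TTATGTAA and TTACGTAA, the ROR and REV-ERB element TAGGTCA or the cyclic AMP element TGACGTCA.
Arntl, chr7:113207261-113207560, plus strand: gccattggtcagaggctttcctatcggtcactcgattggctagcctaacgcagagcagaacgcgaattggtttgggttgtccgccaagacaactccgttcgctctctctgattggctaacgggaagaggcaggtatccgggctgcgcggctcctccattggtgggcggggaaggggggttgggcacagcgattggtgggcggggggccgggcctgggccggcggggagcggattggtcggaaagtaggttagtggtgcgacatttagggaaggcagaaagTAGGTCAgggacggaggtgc
Nr1d1, chr11:98775328-98775627, minus strand: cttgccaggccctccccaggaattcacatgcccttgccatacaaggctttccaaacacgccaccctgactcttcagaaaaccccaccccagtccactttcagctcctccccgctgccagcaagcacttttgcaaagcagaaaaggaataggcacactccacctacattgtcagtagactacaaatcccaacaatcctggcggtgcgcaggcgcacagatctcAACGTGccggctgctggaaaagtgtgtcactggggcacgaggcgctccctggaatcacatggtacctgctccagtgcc
Dbp, chr7:45704997-45705296, plus strand: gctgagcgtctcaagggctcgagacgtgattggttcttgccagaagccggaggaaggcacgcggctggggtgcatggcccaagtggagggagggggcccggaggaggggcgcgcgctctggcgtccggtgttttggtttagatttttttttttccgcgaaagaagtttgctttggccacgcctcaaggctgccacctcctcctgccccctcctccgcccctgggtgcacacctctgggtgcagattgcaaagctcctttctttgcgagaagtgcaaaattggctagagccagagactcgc
Per1, chr11:69098699-69098998, plus strand: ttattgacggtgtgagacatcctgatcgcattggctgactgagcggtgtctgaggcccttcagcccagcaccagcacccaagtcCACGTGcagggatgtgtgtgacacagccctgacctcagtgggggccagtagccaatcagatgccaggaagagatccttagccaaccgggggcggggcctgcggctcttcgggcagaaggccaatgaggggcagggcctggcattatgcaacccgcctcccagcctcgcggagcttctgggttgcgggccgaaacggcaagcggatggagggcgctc
The other Arntl window, the other Per1 window and all 3 Clock windows held none of these elements. The Arntl window shown held TAGGTCA 30 bases downstream of the start site, a sequence found in 2.61% of the 32817 mouse windows. The Nr1d1 window held the E-box variant on the opposite strand, 28 bases upstream (4.69% of windows), and the Per1 window held CACGTG 166 bases upstream (7.15%). None of these letters was in the Dbp window. Elsewhere, the Cry1 window held CACGTG and the variant 60 and 79 bases upstream, the Cry2 window held the variant 166 bases upstream, and the Per3 window held TTATGTAA at 205 and 158 bases upstream (0.935%). TTACGTAA (0.119%) and TGACGTCA (1.79%) were in no member window. A match describes the letters in the window only.

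None of the Per genes, which encode repressors, passed the F-test among regions. Per1 read 212, 93.2 and 78.6 in OB, 232, 90.4 and 111 in HC, 129 and 109 in CX, and 147, 78.1 and 98.9 in BS. Replicate 1 had the highest value in each of the 4 regions. Region means ran from 108 ± 35.4 (SD, n = 3) in BS to 145 ± 76.6 (n = 3) in HC, and the F-test among regions gave an adjusted p of 0.9276 in limma. With replicate number as a term beside region, Per1 had an unadjusted limma p of 0.004359 and an adjusted p of 0.7325, and 0.00721% of all genes passed an adjusted p of 0.05 for that term.

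Per2 read 117, 67.1 and 159 in OB, 91.8, 75.8 and 83.3 in HC, 75.4 and 42.9 in CX, and 123, 78.1 and 88.4 in BS. CX had the lowest mean, at 59.2 ± 23.0 (SD, n = 2), but its higher sample overlapped with OB. Per2 did not pass the F-test (limma adjusted p = 0.3852), and its CX value was 0.73 ± 0.34 SE below the other samples on the log2 scale (adjusted p = 0.504). With counts scaled to the total of recovered reads (CPM) in place of the size factors, both CX samples lay below all others and Per2 was called lower in CX.

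Per3 read 232, 438 and 169 in OB, 149, 242 and 136 in HC, 172 and 183 in CX, and 218, 178 and 225 in BS. OB replicate 2 stood alone at 438, while the other 10 samples ranged from 136 to 242. The F-test gave a limma adjusted p of 0.491.

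The cryptochrome genes encode partners of the PER proteins in repression. Cry1 read 119, 85.3 and 85.1 in OB, 75.0, 120 and 106 in HC, 81.7 and 164 in CX, and 66.2, 140 and 103 in BS. All regions overlapped and the F-test gave a limma adjusted p of 0.9487. Cry2 read 192, 228 and 326 in OB, 261, 364 and 353 in HC, 401 and 406 in CX, and 185, 298 and 204 in BS. The 2 CX samples lay above all 9 others, 1.55-fold higher in the fit (log2 0.63 ± 0.27 SE), with a limma adjusted p of 0.4533. The Cry2 F-test did not pass (adjusted p = 0.1054), except without BS replicate 2 (adjusted p = 0.03289).

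In the second loop, Nr1d1 read 859, 999 and 850 in OB, 1301, 1423 and 1384 in HC, 1573 and 1923 in CX, and 963, 1517 and 1160 in BS. OB was lowest and CX highest, the CX samples lying above all 9 others, while 1 OB sample overlapped with BS. Nr1d1 differed among regions (limma F-test adjusted p = 0.01736), but not without OB replicate 1 (adjusted p = 0.07098), OB replicate 3 (0.07201) or CX replicate 2 (0.09313). Region means were 903 ± 83.8 (SD, n = 3) in OB, 1213 ± 281 (n = 3) in BS, 1370 ± 62.3 (n = 3) in HC and 1748 ± 247 (n = 2) in CX.

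Nr1d1 was called 1.53-fold lower in OB (log2 fold change -0.62 ± 0.18 SE, limma adjusted p = 0.07951, and 0.004888 before adjustment). That adjusted p ranged from 0.01058 to 0.279 over 10 settings and was under 0.05 in 3 of them. Between pairs of regions, CX was higher than OB by 0.95 on the log2 scale (limma adjusted p = 0.01124, where 4.91% of all genes passed), a call lost with CPM scaling, where Per2 passed instead. For the same gene, OB against HC missed the threshold (adjusted p = 0.05645, where 7.11% passed). No member passed between HC and CX, where 1.23% of all genes did and 2 members had an unadjusted limma p under 0.05. The OB call was lost without OB replicate 1, OB replicate 3 or CX replicate 2, where the log2 fold change was -0.58, -0.57 and -0.55, and under CPM, where it was -0.39. Nr1d1 shares 263 exonic bases with Thra on the opposite strand, and whether counting used strand is not stated. Thra, a thyroid hormone receptor gene, read 208 to 371 over the samples and its OB fold change was -0.03 on the log2 scale (limma adjusted p = 0.9639).

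Nr1d2 had the same order of extremes with smaller steps. It read 573, 612 and 575 in OB, 682, 678 and 642 in HC, 770 and 929 in CX, and 692, 667 and 737 in BS. All OB samples lay below all others, as for 3.24% of genes tested, and both CX samples above. Both separations were lost with CPM and with a total of recovered reads that left out Rn45s and choroid plexus genes. The fold changes were -0.30 ± 0.14 SE in OB (limma adjusted p = 0.2865) and 0.38 ± 0.15 SE in CX (adjusted p = 0.4147) on the log2 scale, and neither reached 1.5-fold. The F-test gave an adjusted p of 0.1636.

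Of the ROR receptors, which compete with NR1D1 and NR1D2 for the same elements, Rorb differed most among regions (limma F-test adjusted p = 0.002874). Rorb read 8766 and 8350 in CX, 3617, 6149 and 6097 in HC, 3380, 3515 and 4163 in OB, and 1428, 3602 and 2136 in BS. CX lay above all other samples, and Rorb was called higher there, 2.46-fold (adjusted p = 0.347), and lower in BS, 2.31-fold (adjusted p = 0.05477). Rora read 904 to 1165 in OB and 1190 to 2292 in the other regions, without overlap, and was called lower in OB (log2 fold change -0.68, adjusted p = 0.07019).

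Dbp, the output gene, read 31.5, 37.9 and 38.2 in OB, 24.4, 42.9 and 27.9 in HC, 77.9 and 98.1 in CX, and 18.9, 40.1 and 50.5 in BS. Both CX samples exceeded the highest other sample, and the other 3 regions overlapped. The mean was 88.0 ± 14.3 (SD, n = 2) in CX and 31.7 to 36.5 in the other regions. Dbp was called 2.57-fold higher in CX (log2 fold change 1.36 ± 0.39 SE, limma adjusted p = 0.2764, and 0.003685 before adjustment). Over 10 settings its adjusted p ranged from 0.04887 with DESeq2 to 0.381, and was under 0.05 in 1 of them. Without CX replicate 1 the unadjusted p was 0.01781, and without CX replicate 2 it was 0.05361, so that the call was lost with either sample left out. Dbp shares 539 exonic bases with Sphk2, a sphingosine kinase gene on the opposite strand, which read 61.6 and 33.7 in CX and 29.2 to 67.4 in the other regions.

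In CX, 4 of the 10 members (Cry2, Nr1d1, Nr1d2 and Dbp) had both samples above all other samples, against 5.02% of all genes tested, and none had both below (3.15% of all genes). This count depended on the scaling. In the CX samples Rn45s took 19.0 and 20.7% of the recovered reads, and with CPM the median of all genes in CX moved from -0.03 to -0.37 on the log2 scale. Under that scaling Dbp alone lay above all other samples (0.771% of genes) and Per2 and Clock lay below (11.6%). With Rn45s and choroid plexus genes left out of the total, Dbp lay above (2.15%) and Per2 below (7.26%). Dbp in CX and Arntl in BS kept their separation under all 3 scalings, but the Dbp call was lost with CPM (log2 fold change 0.91, limma adjusted p = 0.2469).

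Of 27 further clock genes (loop components, kinases and ubiquitin ligases, PAR bZIP factors and E-box outputs), 26 were tested. Of these, 5 differed among regions (Hlf, Rorb, Usp2, Npas2 and Rora), as did 3 of the 10 members (Arntl, Nr1d1 and Clock), where 16.5% of all genes passed the same F-test. Against the other regions, Npas2 and Rora were called lower in OB, Rorb was called higher in CX, and Rorb and Hlf were called lower in BS. Usp2 was called higher in BS, where 3.98% of all genes were called higher.

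Hlf encodes a PAR bZIP factor that shares the D-box with DBP. It read 3484, 3259 and 4350 in OB, 1755, 2641 and 3014 in HC, 3867 and 3911 in CX, and 1012, 1799 and 951 in BS. BS was lowest, with BS replicate 2 overlapping only the lowest HC sample, and Hlf was called 2.65-fold lower there (log2 fold change -1.40 ± 0.26 SE, limma adjusted p = 0.006711). Its relative Tef passed no test (F-test adjusted p = 0.4614). Usp2, a deubiquitinase reported to act on clock proteins, read 595, 517 and 406 in BS and 229 to 402 elsewhere, and was called 1.76-fold higher in BS (limma adjusted p = 0.02993). The kinases that act on PER proteins, Csnk1d and Csnk1e, had F-test adjusted p of 0.8839 and 0.6948 in limma. The F-test calls of Rora, Npas2 and Usp2 moved with the settings. Rora lost its call in 5 of 8 alternatives and without any of 8 samples, Npas2 without OB replicate 2, OB replicate 3 or either CX sample (adjusted p up to 0.1489), and Usp2 without BS replicate 1 (0.05412).

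**Figure D3:**
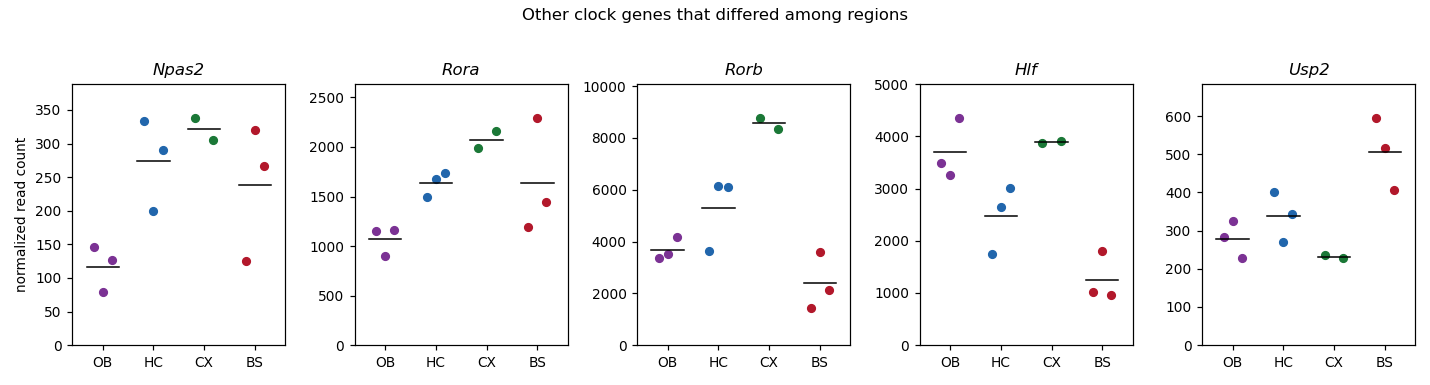
Normalized read count (y axis, from 0, a separate scale for each gene) of the 5 other clock genes that passed the F-test among regions; points are samples and bars are region means. The means of Hlf and Rorb are lowest in BS, those of Npas2 and Rora are lowest in OB, and that of Usp2 is highest in BS.

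The spread between replicates differed between members. The residual SD within regions on the log2 scale was 0.09 for Nr1d2, at percentile 0.368 of all genes tested. Among the 1072 genes within 0.5 log2 units of its level, Nr1d2 stood at the 1.59 percentile, and counting error alone gave an SD of 0.06. Nr1d1 (0.21), Arntl (0.23), Clock (0.30) and Cry2 (0.32) followed. Per2 (0.44), Per3 (0.45), Cry1 (0.46) and Dbp (0.46) were near the median over all genes of 0.45, but among genes of like level Per3 stood at percentile 84.3, Cry1 at 66.3, Per2 at 55.6 and Dbp at 26.9. For Dbp, counting error gave an SD of 0.24. Per1 had the largest value among the members, 0.61, at percentile 89.5 of the 2218 genes of like level. With CPM the residual SD of Nr1d2 was 0.14.

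**Figure D4:**
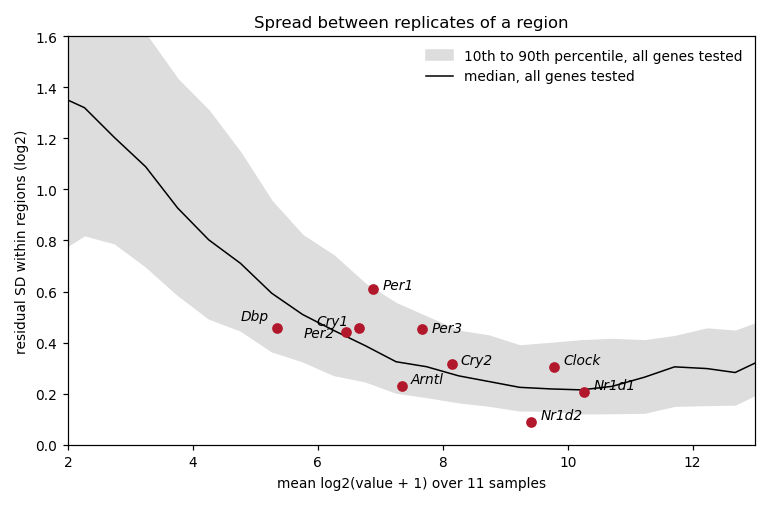
Residual SD within regions (y axis, log2 units) against mean log2(value + 1) over the 11 samples (x axis) for the 10 clock genes (points), with the 10th to 90th percentile (grey) and median (line) of all genes tested. Nr1d2 (0.09) lies below the grey band and Per1 (0.61) near its upper edge.

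No correlation of a member with Arntl within regions passed the test. After the region mean was subtracted, none of the other 9 members had an adjusted p under 0.05 over the 11 samples (exact permutation within regions over 432 orders, two-sided, Benjamini-Hochberg over 9 relations), and none had an unadjusted p under 0.05. For Nr1d1, which represses Arntl, Pearson's r was 0.03 (exact p = 0.8657, adjusted p = 0.919) and Spearman's rho 0.10 (exact p = 0.7523, adjusted p = 1), with r of -0.17 without HC replicates 1 and 3, the samples farthest from the median of Arntl. The most negative by both measures was Per1, with r = -0.51 (exact p = 0.2593, adjusted p = 0.7778) and rho = -0.45 (exact p = 0.2685, adjusted p = 0.6042), and r = -0.16 without those samples. By Pearson's r the most positive was Cry1, with r = 0.44 (exact p = 0.1898, adjusted p = 0.7778) and rho = 0.37 (exact p = 0.2407, adjusted p = 0.6042), and r = 0.34 without them. By Spearman's rho, Cry2 (0.51, exact p = 0.1921, adjusted p = 0.6042) and Dbp (0.44, exact p = 0.2106, adjusted p = 0.6042) were higher.

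Per1 is also an immediate early and glucocorticoid-induced gene, so its replicate differences were set beside a list of each kind, a comparison chosen after the Per1 values were seen. The 15 immediate early and dissociation genes summed to 4805, 4029 and 2265 in OB, 6989, 1785 and 509 in HC, 1393 and 2044 in CX, and 6681, 1146 and 3513 in BS. The sum was highest in replicate 1 of OB, HC and BS, as was Per1, but not in CX. The 9 glucocorticoid-responsive genes summed to 2235, 1423 and 1662 in OB, 3469, 2021 and 2225 in HC, 2544 and 2289 in CX, and 2691, 2338 and 2429 in BS, with replicate 1 highest in all 4 regions.

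With the region mean subtracted, Per1 and the glucocorticoid-responsive sum had r = 0.92 (exact p = 0.01157, adjusted p = 0.108) and rho = 0.83 (exact p = 0.02315, adjusted p = 0.1481). Without HC replicate 1 and OB replicate 1, r was 0.77. Against the immediate early sum, Per1 had r = 0.70 (exact p = 0.05556, adjusted p = 0.2222) and rho = 0.73 (exact p = 0.03704, adjusted p = 0.1481), and r = 0.64 without HC replicates 1 and 3. None of the 20 relations of members with these lists had an adjusted p under 0.05. Leaving out OB replicate 3 gave an adjusted p of 0.02778 for Per1 and the glucocorticoid-responsive sum. For Pearson's r, unadjusted exact p under 0.05 were also found for Cry2 with the immediate early sum (r = -0.78, exact p = 0.01389, adjusted p = 0.108) and, with the glucocorticoid-responsive sum, for Nr1d1 (r = -0.48, exact p = 0.0162, adjusted p = 0.108) and Dbp (r = -0.56, exact p = 0.02315, adjusted p = 0.1157). For Spearman's rho, they were also found for Cry2 with the immediate early sum (rho = -0.83, exact p = 0.01852, adjusted p = 0.1481). With the glucocorticoid-responsive sum, they were found for Nr1d1 (rho = -0.72, exact p = 0.009259, adjusted p = 0.1481), Per2 (rho = 0.64, exact p = 0.03704, adjusted p = 0.1481) and Clock (rho = 0.72, exact p = 0.04861, adjusted p = 0.1562).

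**Figure D5:**
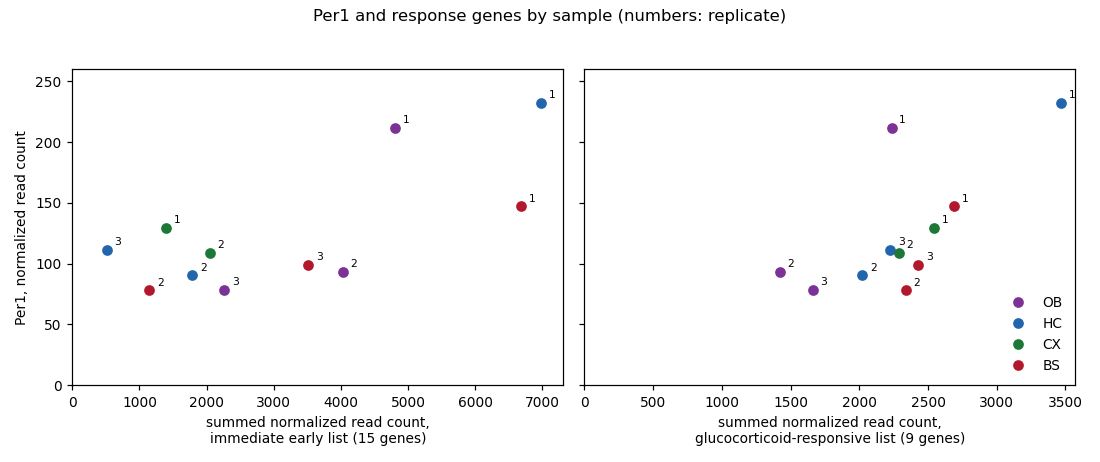
Per1 (y axis, normalized read count) against the summed normalized read count of the immediate early list (left x axis) and of the glucocorticoid-responsive list (right x axis); each point is a sample, with its replicate number, coloured by region. HC replicate 1 (Per1 232) and OB replicate 1 (212) are highest in Per1, and replicate 1 is highest in the right-hand sum in every region.

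Among the genes most like Arntl over the 11 samples, of 13870 genes compared, were Dmrta2 (Pearson r of log2 values 0.95), C030018K13Rik (0.95), Gldc (0.94) and Fgd4 (0.94). Dmrta2, a transcription factor gene, read 25.0 to 56.7 in OB, HC and CX and was 0 in all 3 BS samples, which allows up to 3.15, 6.01 and 6.31 normalized counts (3 reads). C030018K13Rik was also 0 in BS, whereas Arntl there was at 84.2. Gldc, of the glycine cleavage system, read 680 to 1313 in the 8 other samples and 36.8 to 62.1 in BS. For Dbp the closest were Hdac5 (0.94), Gclm (0.93), Usp22 (0.93), Cbx3 (0.89) and Opa1 (0.88). Hdac5, a histone deacetylase gene, read 236 in both CX samples and 102 to 184 in the others. These correlations describe 11 libraries that share their regional grouping.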

How the data were processed

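Total RNA (5 ng) from FACS-sorted Aldh1l1-eGFP cells was made into libraries with the Trio RNA-Seq System. The authors aligned reads to mm10 with STAR 2.5.0a, counted them on UCSC gene models and normalized with DESeq2 1.20.0 (versions per the submitters' processing notes). The deposited values are a signal per gene: a read count divided by 1 size factor per sample, not scaled to gene length. Values came out as whole multiples of 1 read (to 0.001 of a read below 1000 reads, and in proportion above) for 100% of non-zero entries in every sample, so reads were recovered. Intervals and floors cover counting error only.

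Groups were taken from the labels. Tests were run on log2(value + 1) in limma 3.58.1 with a mean-variance trend, after edgeR 4.0.16 filterByExpr on recovered reads, in R 4.3.3, with Benjamini-Hochberg adjustment over the 13875 genes tested. Contrasts were each region against the other samples, an F-test among regions and the 6 pairs of regions. The pipeline was tested on simulated data. Count tests on the recovered reads were alternatives, and by the unadjusted rule limma called 1116, 178, 384 and 1253 genes in OB, HC, CX and BS, edgeR (TMM) 1137, 188, 296 and 1126, and DESeq2 1.42.0 1484, 419, 591 and 1428.

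The 10 members and all gene lists were chosen with earlier results of these data known. All members are named, and of the other clock genes those called in any test, up to 8 by smallest F-test p; Tef, Csnk1d, Csnk1e and Arntl2 were added for their roles. For Arntl and Dbp genes were taken from the 5 with the highest Pearson r. Some genes these rules pick are not reported here. Sequences are RefSeq start-site windows.

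Replicate numbers in the titles were checked for pairing. Deviations of same-numbered samples from different regions correlated at -0.16 to 0.25 (median 0.02, over 0.1 in 3 of 15 pairs). For samples with different numbers they correlated at -0.22 to 0.18 (median -0.003, over 0.1 in 5 of 30 pairs). Of 11 samples, 7 correlated best with their own number. The numbers were not treated as pairs in the main tests, but this check cannot exclude pairing. Alternatives covered the test, scaling, pseudocount (0.25), filter, threshold, model, replicate block and each sample left out. The scaling without Rn45s and choroid plexus genes, the edgeR and DESeq2 counts at an adjusted p, the separation of samples by scaling and the relations with response lists were added after seeing the data.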

Additional observations from a re-analysis of the deposited data

How the results depend on the processing

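Arntl in BS was called in every alternative run, with 1 member called in BS throughout, and without each of the 11 samples. In OB, the count of 1 (Nr1d1) became 0 with CPM scaling, with an adjusted p under 0.05 in limma and with edgeR (TMM) at an adjusted p under 0.05. In HC, the count of 0 became 1 (Arntl) with a mean for each region. In CX, the count of 1 (Dbp) became 0 with an adjusted p under 0.05 in limma or edgeR (TMM), 2 with CPM scaling (Per2 and Clock, without Dbp), 2 without Rn45s and choroid plexus genes in the total (Clock and Dbp) and 3 with a mean for each region (Clock, Nr1d1 and Dbp). Shares of all genes called under these other scalings and models, or passing between pairs of regions under them, are not given here. With CPM the median log2 fold change of all genes in CX was -0.37, and 11.6% of all genes had both CX samples below all others. At an adjusted p under 0.01, 1 member and 2 other clock genes differed among regions in place of 3 and 5. Between pairs of regions, OB against HC gave 1 (Nr1d1) in place of 0 with CPM scaling, also without Rn45s and choroid plexus genes, and with the replicate block. OB against BS gave 2 in place of 1 without Rn45s and choroid plexus genes, HC against CX 1 in place of 0 and HC against BS 2 in place of 1 with CPM scaling. OB against CX stayed at 1 with CPM scaling, but with Per2 in place of Nr1d1.

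Leaving out 1 sample at a time gave 0 to 1 members called in OB, 0 in HC, 0 to 2 in CX and 1 in BS. Without 1 sample, 1 to 4 members and 3 to 6 other clock genes differed among regions. Pairs of regions gave 0 to 1 for OB against HC and OB against CX, 1 to 2 for OB against BS, 0 for HC against CX, 1 for HC against BS and 0 to 4 for CX against BS. Where CX was left with 1 sample, that sample was assumed to vary like the other groups. CX against BS fell from 2 to 0 without either CX sample, to 1 without BS replicate 1 or 3, and rose to 4 without BS replicate 2. The count in CX was 2 without OB replicate 2 (Clock and Dbp), OB against HC was 1 without BS replicate 1 or 2, and OB against BS was 2 without BS replicate 2. OB against CX fell to 0 without OB replicate 1, OB replicate 3 or either CX sample. The count of members differing among regions fell from 3 to 1 without OB replicate 1 or CX replicate 2, and that of other clock genes from 5 to 3 without OB replicate 2, OB replicate 3 or either CX sample.

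The replicate block moved no count of members called against the other regions. It raised CX against BS from 2 to 3 members, and under it Rora had an F-test adjusted p of 0.05015. Of 11 samples, 7 correlated best with their own number, a hint from the data only. Of single values, 176 alternatives stayed as in the main test, 8 lost a call, 1 (Dbp among regions with DESeq2, adjusted p = 0.03397) gained one and 1 (residual SD of Nr1d2) moved. With 1 sample left out, 289 stayed as in the main test, 28 lost a call and 2 gained one. Those that stayed include values not called in the main test and, for the alternatives, residual SDs, which have no test. No direction of a called value reversed. The cause of these changes was not tested, apart from fewer samples where a sample was left out. Depth limits Dbp, at 18 to 76 reads per sample, and with 2 CX samples the CX contrasts rest on each of them.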
